A study of Mus musculus with 15 samples.

Results

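The genes described here are 10 components of gp130-type cytokine signalling: the cytokine gene Lif, the receptor genes Osmr and Lifr, the kinase genes Jak1 and Jak2, the transcription factor gene Stat3, the inhibitor genes Socs1, Socs2 and Socs3, and the transcription factor gene Cebpd. They were taken by gene symbol from a table of 22526 symbols measured in every library, and all 10 were found. The RNA came from cerebral vessels isolated by homogenisation and centrifugation from the brains of wild type C57BL/6 mice aged 8 months. There were 3 groups of 5 libraries. In the group GFP-Veh, stereotactic injection of AAV-GFP, an adeno-associated virus encoding GFP, was followed by saline. In GFP-AL the same virus was followed by AngII plus L-NAME, that is, the vasoconstrictor hormone angiotensin II together with a blocker of the nitric oxide synthases. In LH3-AL the virus was AAV-LH3, encoding a lysyl hydroxylase that modifies collagen, and the drugs were again AngII plus L-NAME. All 3 groups therefore carried a virus and no group combined AAV-LH3 with saline, so an effect of AAV-LH3 without the drugs cannot be read from these data. The sources used here do not name the promoter of the viral genes or the cells that took up the virus.

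Cytokines such as interleukin 6, interleukin 11, leukaemia inhibitory factor (LIF) and oncostatin M bind a receptor complex that contains gp130, the product of Il6st. The Janus kinases JAK1, JAK2 and TYK2, bound to the receptor tails, phosphorylate the receptors and then STAT3, which enters the nucleus and raises the transcription of genes that include Socs3. SOCS3 in turn binds gp130 and the kinases and shuts the signal off, so Socs3 mRNA is widely used as a readout of recent STAT3 activity. In brain vessels, endothelial cells and the cells around them carry receptors of this family and respond to inflammatory cytokines in the blood.

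The unit is named FPKM, fragments scaled to transcript length and library depth, which lets levels be set side by side between genes. However, 5.99% of the deposited values were below 0, which plain FPKM cannot be. The values had therefore been altered in a way that the sources used here do not give. Values below 0 were set to 0, and levels close to 0 are not reliable measures of fragments. The differences given are between group means of log2(FPKM + 1), a scale that understates the change of genes with a low FPKM, and each carries its standard error (SE). A gene was called when the Benjamini-Hochberg adjusted p of limma, fitted across the 13082 genes whose mean reached 1 FPKM, was below 0.05. All 10 genes passed that filter, Lif only through GFP-AL, because its mean was 0.246 FPKM in GFP-Veh and 0.261 FPKM in LH3-AL. The labels do not say whether each library came from its own mouse, so the p-values measure the spread between these libraries. In bulk RNA, fewer cells of a type and less RNA per cell cannot be told apart. Depth, estimated from the smallest steps of the FPKM values, lay between 13560000 and 31600000 fragments, and 4 of the 5 GFP-Veh libraries were the shallowest. GFP-AL replicate 3 stood apart, where only 11967 genes reached 1 FPKM (the other libraries had 12446 to 13457). GFP-Veh replicate 2 and GFP-AL replicate 2 had also stood apart in earlier results of these data, and the calls are given without these 3 libraries wherever they changed.

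The 3 stretches below lie upstream of the RefSeq transcription starts of the gene of the 10 that moved most (Socs3), of the factor that acts on it (Stat3), and of a relative that was not called (Socs1). The capitals mark the letters TTCNNNGAA, the palindromic core bound by STAT factors. All are from RefSeq on GRCm38.p6, minus strand, 165 bases each, from 250 to 86 bases before the start.
Socs3, chr11:117969452-117969616: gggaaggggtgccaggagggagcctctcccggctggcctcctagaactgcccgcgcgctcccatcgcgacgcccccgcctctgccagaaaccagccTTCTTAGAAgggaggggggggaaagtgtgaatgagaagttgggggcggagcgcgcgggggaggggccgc
Stat3, chr11:100939626-100939790: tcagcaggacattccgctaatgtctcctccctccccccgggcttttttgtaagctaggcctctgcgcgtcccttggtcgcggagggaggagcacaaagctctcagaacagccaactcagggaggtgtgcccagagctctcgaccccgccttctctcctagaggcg
Socs1, chr16:10785622-10785786: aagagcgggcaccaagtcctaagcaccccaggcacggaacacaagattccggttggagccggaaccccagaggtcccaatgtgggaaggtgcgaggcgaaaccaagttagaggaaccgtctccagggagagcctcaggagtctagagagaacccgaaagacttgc
The match in Socs3, TTCTTAGAA, lies 154 to 146 bases before the start, and no GENCODE M21 exon covers any of the 3 stretches. Of the 10 genes, 8 had a promoter in the table, with 9 windows of 250 bases among them because Lifr has a pair. TTCNNNGAA was present in 1 of these 9 windows, that of Socs3, and in 7.02% of all 32851 windows of that length. TTGCNNAA, a core bound by C/EBP factors and searched on both strands, was present in 0 of the 9 windows and in 9.56% of all windows. A match is a description of the letters, not a measured binding site.

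Most of the 10 genes were higher with the drugs than with saline in mice with AAV-GFP, and Lifr alone was lower. On the log2(FPKM + 1) scale Socs3 and Cebpd differed most. By the ratio of mean FPKM, Lif (14.3), with its low level outside GFP-AL, came between Socs3 (18.6) and Cebpd (6.14). In mice with AAV-LH3 under the same drugs the differences of the 10 genes from saline ran from -0.09 to 0.86 on the log2 scale. Against GFP-Veh, 8 of the 10 were called higher in GFP-AL and 1 lower, where 28.6% of all tested genes were called (10.8% higher and 17.7% lower). Median-of-ratios scaling moved the split of all called genes from 1416 higher and 2321 lower to 1842 higher and 1711 lower, and that of the 10 genes to 8 higher and 0 lower. Without Lif, which passed the filter only through GFP-AL, 7 of 9 were higher and 1 lower. The 10 had a median log2 difference of 0.77 (0.75 without Lif), against -0.09 over all tested genes. Against GFP-AL, 8 of the 10 were called lower in LH3-AL and 1 higher, where 28.5% of all tested genes were called (11.4% lower and 17% higher). The same scaling moved the split of all called genes from 2227 higher and 1496 lower to 1782 higher and 1895 lower, and left that of the 10 genes at 1 higher and 8 lower. Without Lif, 7 of 9 were lower and 1 higher. Here the median was -0.72 for the 10 genes (-0.55 without Lif) and 0.08 over all tested genes. Both comparisons use the same 5 GFP-AL libraries, so they are not independent of each other. Between LH3-AL and GFP-Veh 0 of the 10 were called, where 0.52% of all tested genes were, and the median was 0.07 for the 10 and -0.01 over all tested genes. Of the 10, only Socs3 had an unadjusted p below 0.05 there.

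**Figure D1:**
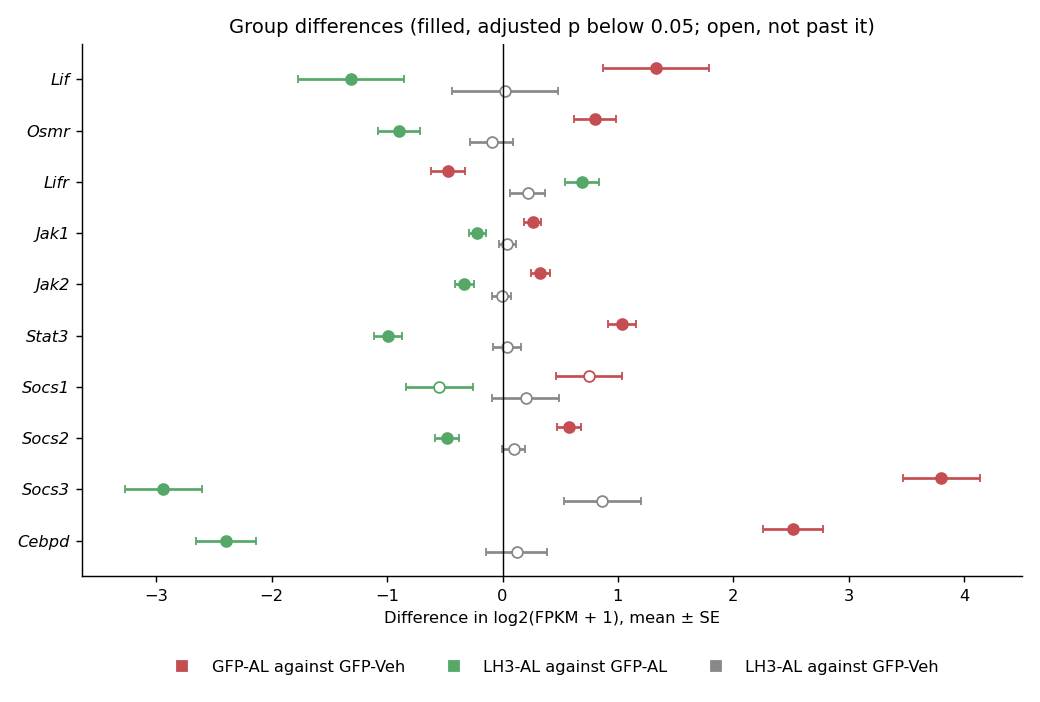
Difference in log2(FPKM + 1) between groups for each of the 10 genes (horizontal axis, mean ± SE from limma, 5 libraries a group), with the 3 comparisons in 3 colours. Filled points passed an adjusted p of 0.05: Socs3 and Cebpd lie farthest from 0, Lifr points the other way from the rest, and every point for LH3-AL against GFP-Veh is open.

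Lif encodes the cytokine LIF, which signals through a pair of LIFR and gp130. Its level was low in GFP-Veh, at 0.184, 0.195, 0.180, 0.354 and 0.317 FPKM in replicates 1 to 5. In GFP-AL it was 2.27, 10.2, 0.179, 4.66 and 0.239 FPKM. In LH3-AL it was 0.269, 0.269, 0.236, 0.288 and 0.243 FPKM. GFP-AL was thus divided: replicates 1, 2 and 4 lay above every other library, while replicate 5 lay within the GFP-Veh range and replicate 3 was the lowest of all 15 libraries, just under the lowest GFP-Veh library. The fitted difference was 1.33 ± 0.46 for GFP-AL against GFP-Veh (log2, SE; limma adjusted p = 0.0403) and -1.31 ± 0.46 for LH3-AL against GFP-AL (adjusted p = 0.0431). Lif entered this test only through the group where it is high, so both calls are given as a description, and with no filter neither was made (limma adjusted p = 0.0588 and 0.0627). The first call was also lost when any one of the 5 GFP-Veh libraries or GFP-AL replicate 1, 2 or 4 was left out (limma adjusted p from 0.0572 to 0.0918), and the second without GFP-AL replicate 1, 2 or 4 or any one LH3-AL library (0.0634 to 0.0942). Without GFP-AL replicate 2 the differences were 0.87 and -0.85.

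The other ligand genes of the family were described from a list of 10, of which 5 passed the filter. In GFP-AL 3 of these 5 were called higher, and 3 were called lower in LH3-AL than in GFP-AL. Of all tested genes 10.8% were called higher in the first comparison and 11.4% lower in the second. Il11, like Lif, passed the filter only through GFP-AL, so its test too is a description, and without it 2 of 4 were called in each comparison. Il11, encoding interleukin 11, was at 1.91, 13.1, 0.433, 5.36 and 7.03 FPKM in GFP-AL against 0.181 to 0.403 FPKM in GFP-Veh and 0.299 to 0.460 FPKM in LH3-AL. Its groups did not overlap between GFP-AL and GFP-Veh, although GFP-AL replicate 3 lay just above the saline range (1.96 ± 0.42, limma adjusted p = 0.00329), and in LH3-AL it was lower than in GFP-AL (-1.84 ± 0.42, adjusted p = 0.00575). Clcf1, which encodes a cytokine that acts through the CNTF receptor, rose by 0.86 ± 0.16 in GFP-AL (limma adjusted p = 0.00136) and differed by -0.83 ± 0.16 between LH3-AL and GFP-AL (adjusted p = 0.00198).

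Il6, the gene of interleukin 6, did not pass the filter and was not tested. It was at 0.329, 1.13, 0.000402, 0.812 and 1.18 FPKM in GFP-AL and at no more than 0.0846 FPKM in any other library. Outside GFP-AL that level corresponds to fewer than 5 estimated fragments in each library (at most 4.75), so no fold change is given. Osm, encoding oncostatin M, was not tested either and was at 0.472, 3.69, 2.05, 1.20 and 0.188 FPKM in GFP-AL, with 4 of these 5 libraries above the highest GFP-Veh value of 0.394 FPKM. In LH3-AL it lay between 0.0491 and 0.162 FPKM. Osm too rested on few estimated fragments a library, 5.21 to 16.4 in GFP-Veh and 2.48 to 11.6 in LH3-AL.

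GFP-AL replicate 3 therefore had Lif and Il6 at or below the control level and Il11 close to it, while its Socs3 and Cebpd levels, given further on, were the highest of all 15 libraries. Osm was raised in that library. Whether its lower number of detected genes has a part in this was not tested.

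**Figure D2:**
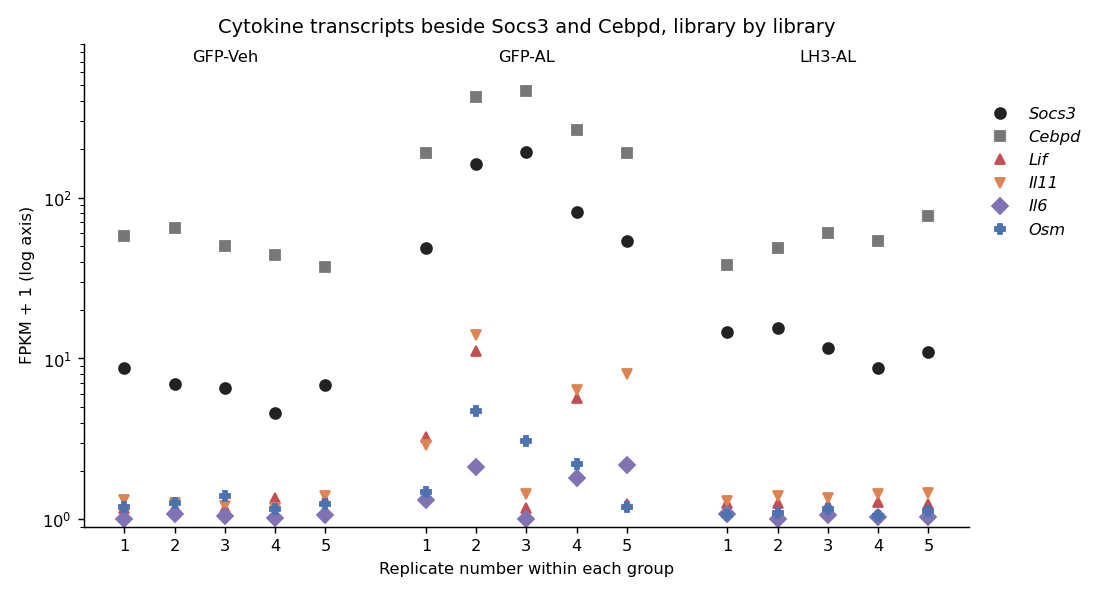
Levels of 4 cytokine genes beside Socs3 and Cebpd in each library (vertical axis, FPKM + 1 on a log axis; horizontal axis, replicate number within each group, which has no order). In GFP-AL replicate 3, Socs3 (192 FPKM) and Cebpd (459 FPKM) are at their highest while Lif (0.179 FPKM) and Il6 (0.000402 FPKM) sit with the control libraries.

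Osmr encodes the oncostatin M receptor, which pairs with gp130. It was at 19.9, 9.07, 15.0, 11.5 and 11.5 FPKM in GFP-Veh, at 17.6, 22.7, 26.7, 31.9 and 20.0 FPKM in GFP-AL, and at 12.4, 10.1, 12.3, 11.9 and 13.9 FPKM in LH3-AL. GFP-Veh replicate 1 overlapped with GFP-AL, and all LH3-AL libraries lay below all GFP-AL libraries. Osmr rose in GFP-AL by 0.80 ± 0.18 (limma adjusted p = 0.00489) and was lower in LH3-AL than in GFP-AL (-0.90 ± 0.18, adjusted p = 0.00284).

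Lifr encodes the LIF receptor, which is also part of the receptor for CNTF and its relatives. Its levels were 9.77, 8.35, 10.3, 9.32 and 9.52 FPKM in GFP-Veh, 7.77, 3.95, 7.94, 6.66 and 7.10 FPKM in GFP-AL, and 11.3, 9.71, 12.7, 13.5 and 9.10 FPKM in LH3-AL. It was the one gene of the 10 that moved downward: every GFP-AL library lay below every library of the other groups, and replicate 2 was the lowest. Lifr fell by 0.47 ± 0.15 in GFP-AL (limma adjusted p = 0.0278) and was higher in LH3-AL than in GFP-AL (0.69 ± 0.15, adjusted p = 0.00397). The fall in GFP-AL was no longer called with median-of-ratios scaling (-0.39, limma adjusted p = 0.0799), with quantile normalization (-0.42, 0.0570) or without any one of GFP-Veh replicates 1, 3, 4 and 5 (0.0513 to 0.0605). The difference between LH3-AL and GFP-AL kept its call in every setting tried.

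As a result, the ratio of Osmr to Lifr differed in level between the groups. It was 1.40 ± 0.380 (SD, n = 5) in GFP-Veh and was 3.80 ± 1.44 in GFP-AL, with 1.10 ± 0.253 in LH3-AL. The lowest GFP-AL ratio was 2.26 and the highest ratio in the other groups was 2.04, in GFP-Veh replicate 1. The ratio is a description and was not tested.

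Of 6 further receptor genes of the family, 5 passed the filter, and 1 of these rose in GFP-AL: Il6ra, which encodes the specific chain of the interleukin 6 receptor (1.07 ± 0.13, limma adjusted p = 4.81e-05). Of all tested genes 10.8% rose there, and nothing about the receptor genes is read from that count. Il6ra was also lower in LH3-AL than in GFP-AL (-0.79 ± 0.13, adjusted p = 7.19e-04). It had a mean of 5.49 FPKM in GFP-Veh, 12.7 FPKM in GFP-AL and 6.84 FPKM in LH3-AL, and GFP-AL did not overlap with either group. Il6st, encoding gp130 itself, was not called in any comparison, with a difference of -0.29 ± 0.17 between GFP-AL and GFP-Veh and 0.18 ± 0.17 between LH3-AL and GFP-AL. Its levels in GFP-AL were 11.2, 14.5, 6.98, 14.6 and 14.5 FPKM, where replicate 3 was the lowest of all 15 libraries.

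Jak1 and Jak2 encode kinases bound to these receptors. Jak1 was at 15.2, 14.0, 15.9, 14.8 and 14.1 FPKM in GFP-Veh, 15.7, 18.1, 18.5, 18.7 and 19.0 FPKM in GFP-AL, and 16.4, 14.3, 14.8, 15.0 and 15.9 FPKM in LH3-AL. Replicate 1 of GFP-AL lay within the range of the other groups and the other 4 lay above it. Jak1 rose by 0.26 ± 0.08 in GFP-AL (limma adjusted p = 0.0176) and was lower in LH3-AL than in GFP-AL by a similar amount (-0.22 ± 0.08, adjusted p = 0.0397). The second call was lost without any one of GFP-AL replicates 2 to 5 or LH3-AL replicates 2 to 4 (limma adjusted p from 0.0586 to 0.0883), and leaving out the 3 libraries that stood apart ended both (0.0613 and 0.0848).

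Jak2 was at 21.6, 19.6, 23.0, 21.5 and 20.6 FPKM in GFP-Veh, 27.3, 30.1, 27.2, 24.0 and 26.1 FPKM in GFP-AL, and 21.4, 18.6, 20.5, 22.3 and 23.1 FPKM in LH3-AL. GFP-AL did not overlap with either group, although its replicate 4 lay close to the top of both. Jak2 rose in GFP-AL by 0.33 ± 0.08 (limma adjusted p = 0.00859), a call lost (0.24, adjusted p = 0.0501) when the 3 libraries that stood apart were left out, and was lower in LH3-AL than in GFP-AL (-0.33 ± 0.08, adjusted p = 0.00888). The kinases' ratios of mean FPKM between GFP-AL and GFP-Veh, 1.21 for Jak1 and 1.27 for Jak2, were the smallest among the 8 genes called higher. The other Janus kinases moved in opposite directions in GFP-AL: Jak3 rose by 0.73 ± 0.16 (limma adjusted p = 0.00301) and Tyk2 fell by 0.51 ± 0.09 (adjusted p = 7.45e-04). Tyk2 was higher in LH3-AL than in GFP-AL (0.50 ± 0.09, adjusted p = 0.00120), while Jak3 was not called there (-0.30 ± 0.16).

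Stat3 encodes the transcription factor that the kinases activate, and its gene is itself a target of STAT3. It was at 11.5, 8.32, 10.5, 8.75 and 8.15 FPKM in GFP-Veh, 15.4, 24.1, 22.2, 21.1 and 19.2 FPKM in GFP-AL, and 9.78, 8.78, 10.0, 8.78 and 10.9 FPKM in LH3-AL. All 5 GFP-AL libraries lay above all others, and the other groups covered nearly the same range. The mean FPKM was 2.16 times as high in GFP-AL as in GFP-Veh (1.03 ± 0.12, limma adjusted p = 3.79e-05) and 2.11 times as high as in LH3-AL (-0.996 ± 0.12 for LH3-AL against GFP-AL, adjusted p = 8.65e-05). Of 6 other STAT genes 5 passed the filter, and 0 of these were called in either comparison by limma (1 had an unadjusted p below 0.05 in each). Of all tested genes 28.6% and 28.5% were called in these comparisons.

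Socs3, the feedback inhibitor of gp130, was the gene of the 10 with the largest difference. Its levels in GFP-Veh were 7.76, 5.93, 5.53, 3.61 and 5.83 FPKM. In GFP-AL they were 47.4, 159.7, 192.2, 80.7 and 52.8 FPKM. In LH3-AL they were 13.6, 14.4, 10.6, 7.78 and 9.99 FPKM. The 3 groups did not overlap, though the lowest LH3-AL library lay only just above the highest GFP-Veh library, and within GFP-AL replicates 2 and 3 were far above replicates 1 and 5. Mean Socs3 was 18.6 times as high in GFP-AL as in GFP-Veh (3.80 ± 0.33, limma adjusted p = 6.04e-06), which placed it at rank 7 from the highest of 13082 tested genes. It was 9.47 times as high in GFP-AL as in LH3-AL (-2.94 ± 0.33 for LH3-AL against GFP-AL, adjusted p = 5.32e-05).

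Between LH3-AL and GFP-Veh, Socs3 differed by 0.86 ± 0.33 with a limma adjusted p of 0.424, which did not pass the threshold. Mean Socs3 was 1.96 times as high in LH3-AL. It was the 1 gene of the 10 whose groups did not overlap there, where 4.67% of all tested genes did not (2.06% with LH3-AL higher). A fit of these 2 groups alone called it (0.86, adjusted p = 0.0477).

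Socs2, best known as the inhibitor of growth hormone receptor signalling, changed less. It was at 2.32, 2.46, 2.88, 2.70 and 2.13 FPKM in GFP-Veh, 4.36, 4.02, 5.54, 3.53 and 3.85 FPKM in GFP-AL, and 2.91, 2.41, 2.80, 2.56 and 3.00 FPKM in LH3-AL. GFP-AL lay above both other groups in every library, with replicate 3 the highest. Socs2 rose by 0.58 ± 0.10 in GFP-AL (limma adjusted p = 8.97e-04) and was lower in LH3-AL than in GFP-AL (-0.48 ± 0.10, adjusted p = 0.00369).

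Socs1, an inhibitor of the Janus kinases best known in interferon signalling, was not called. It was at 0.410, 1.85, 1.03, 1.25 and 0.648 FPKM in GFP-Veh, 1.42, 3.38, 5.27, 0.793 and 2.40 FPKM in GFP-AL, and 1.37, 2.32, 0.923, 0.939 and 1.06 FPKM in LH3-AL. The groups overlapped, and GFP-AL replicate 3 was again the highest library. The difference was 0.75 ± 0.29 for GFP-AL against GFP-Veh (limma adjusted p = 0.0641) and -0.55 ± 0.29 for LH3-AL against GFP-AL (adjusted p = 0.163). The first passed with quantile normalization (0.85, adjusted p = 0.0452) and without GFP-Veh replicate 2, GFP-AL replicate 1 or GFP-AL replicate 4 (adjusted p = 0.0363, 0.0461 and 0.0142). The second passed without GFP-AL replicate 4 (-0.77, adjusted p = 0.0421), and without the 3 libraries that stood apart it was -0.11.

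**Figure D3:**
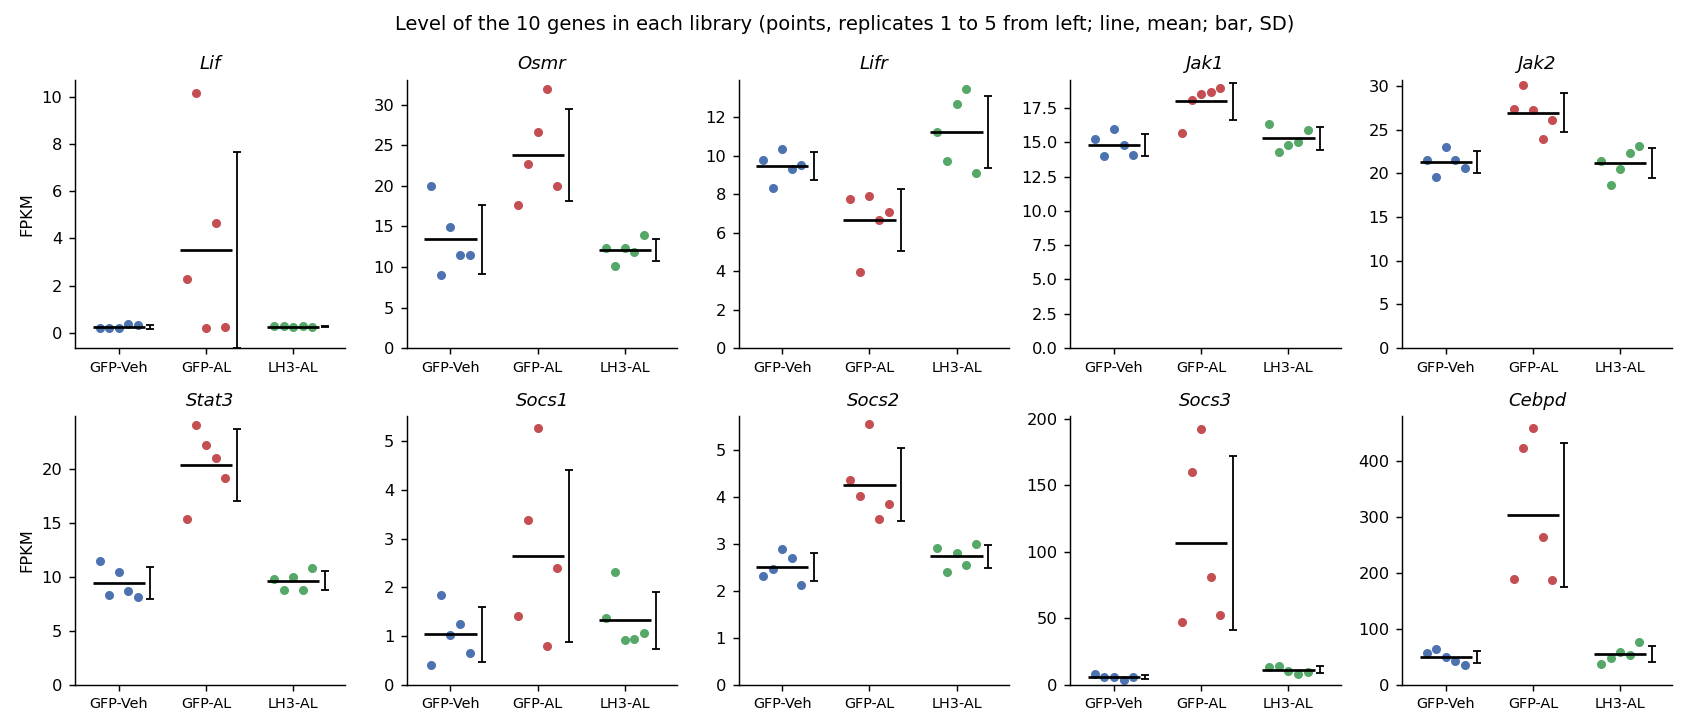
FPKM of each of the 10 genes in each library (points, one panel a gene, each with its own linear vertical axis in FPKM), grouped as GFP-Veh, GFP-AL and LH3-AL, with a line at the group mean and a bar for ± 1 SD. Socs3 in GFP-AL lies between 47.4 and 192.2 FPKM, above every other library, whereas Lif is spread from 0.179 to 10.2 FPKM within that group.

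Because Stat3 and Socs3 both rose, the balance of inhibitor to factor mRNA was also described, without a test. The ratio of Socs3 to Stat3 FPKM was 0.609 ± 0.134 (SD, n = 5) in GFP-Veh and 4.99 ± 2.55 in GFP-AL, with 1.18 ± 0.324 in LH3-AL. The 3 groups did not overlap, since GFP-Veh reached at most 0.716, LH3-AL ran from 0.887 to 1.64 and GFP-AL began at 2.75. Socs3 was thus below Stat3 in all GFP-Veh libraries and above it in all GFP-AL libraries. The ratio of Socs3 to Socs2 had the same order, with means of 2.35 ± 0.766, 24.4 ± 12.6 and 4.15 ± 1.19.

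**Figure D4:**
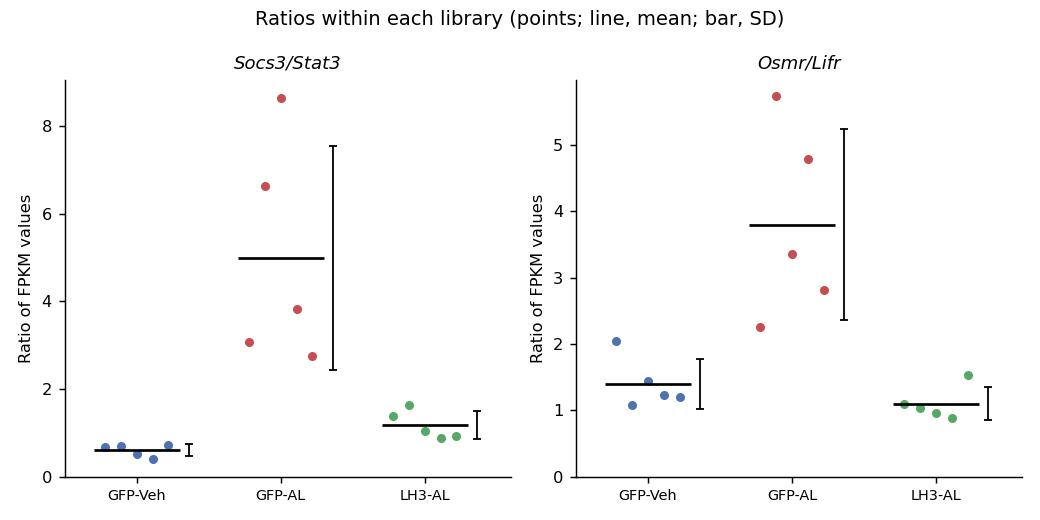
Ratios of FPKM values, Socs3 to Stat3 and Osmr to Lifr, in each library (points; linear vertical axes from 0), by group, with a line at the group mean and a bar for ± 1 SD. The Socs3 to Stat3 ratio lies between 0.412 and 0.716 in GFP-Veh, 2.75 and 8.64 in GFP-AL, and 0.887 and 1.64 in LH3-AL.

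The 13 other inhibitor genes examined all passed the filter. In GFP-AL 2 rose and 2 fell, against a background of 28.6% of all tested genes called in either direction, and nothing about these genes is read from that count. Those that rose encode phosphatases, Ptpn1 (0.73 ± 0.09) and Ptpn6 (0.85 ± 0.16), the latter a phosphatase of blood cells. Those that fell were members of the SOCS family, Socs7 and Socs4 (both -0.32). In LH3-AL against GFP-AL 3 of the 13 were lower, Ptpn1 (-0.66), Ptpn6 (-0.93) and Ptpn2 (-0.40), and 1 was higher, Socs7 (0.28). Of all tested genes 28.5% were called there in either direction, and nothing is read from that count either.

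Cebpd encodes C/EBP delta, a transcription factor of the acute-phase response whose gene is a target of STAT3. It was the most abundant of the 10 genes in every group. Its levels were 56.4, 63.3, 49.4, 42.8 and 35.9 FPKM in GFP-Veh, 188.8, 422.6, 458.6, 263.5 and 186.9 FPKM in GFP-AL, and 36.8, 47.8, 58.8, 52.8 and 76.2 FPKM in LH3-AL. GFP-AL lay above all other libraries, with the same libraries at the top as for Socs3 (replicates 2 and 3), and the other groups overlapped. Cebpd was 6.14 times as high in GFP-AL as in GFP-Veh (2.52 ± 0.26, limma adjusted p = 1.88e-05) and 5.58 times as high as in LH3-AL (-2.39 ± 0.26 for LH3-AL against GFP-AL, adjusted p = 4.45e-05). Of the 5 other C/EBP genes 4 passed the filter and 2 rose in GFP-AL, Cebpb (1.89 ± 0.40, adjusted p = 0.00310) and Cebpa (0.42 ± 0.14, adjusted p = 0.0391). Both were lower in LH3-AL than in GFP-AL (-2.48 ± 0.40 and -0.63 ± 0.14). Of all tested genes 10.8% were called higher in the first comparison and 11.4% lower in the second.

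Counting every library, 5 of the 10 genes lay wholly above GFP-Veh in GFP-AL and 1 wholly below, where 16.7% of all tested genes did not overlap (6.59% wholly above). The 5 were Socs3, Cebpd, Stat3, Socs2 and Jak2, and the 1 was Lifr. In LH3-AL against GFP-AL 6 lay wholly below and 1 wholly above, where 19.4% of all tested genes did not overlap (8.45% wholly below). These were the same genes with Osmr added.

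Genes that STAT3 is known to control were followed in a list of 20, of which 18 passed the filter. In GFP-AL against GFP-Veh these 18 had log2 differences from -0.39 to 3.05. Their median was 0.79, against -0.09 over all tested genes. Of the 18, 10 rose in GFP-AL and 0 fell, where 10.8% of all tested genes rose and 17.7% fell. By the smallest p these were Il4ra (2.35 ± 0.26), a receptor chain for interleukins 4 and 13, Timp1 (3.05 ± 0.33), an inhibitor of matrix metalloproteinases, Pim1 (1.37 ± 0.20), a kinase that favours survival, and Icam1 (1.73 ± 0.28), the endothelial adhesion molecule for leukocytes. In LH3-AL against GFP-AL 12 of the 18 were lower and 0 higher, where 11.4% of all tested genes were lower and 17% higher. The 18 ran from -2.58 to 0.43 with a median of -1.03, against 0.08 over all tested genes. Il4ra differed by -2.04 ± 0.26 and Timp1 by -2.58 ± 0.33. Cdkn1a, encoding the cell cycle inhibitor p21, differed by -1.59 ± 0.25 and Bcl3, a partner of NF-kappaB, by -1.71 ± 0.29. Not all of the 12 were among the 10 that rose: Cdkn1a was not called in GFP-AL against GFP-Veh (0.37 ± 0.25, limma adjusted p = 0.297). Nor were all of the 10 that rose called lower in LH3-AL than in GFP-AL.

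Acute-phase genes made the largest differences. Of 19 listed, 9 passed the filter, 7 of these rose in GFP-AL and 0 fell, where 10.8% of all tested genes rose. The 9 ran from -0.34 to 5.00. Lcn2, an iron-scavenging defence protein, rose by 5.00 ± 0.59, Serpina3n, a protease inhibitor, by 4.79 ± 0.42, Lrg1, a secreted regulator of TGF-beta signalling in vessels, by 4.72 ± 0.45, and Saa3, a serum amyloid A protein, by 3.44 ± 0.38. In LH3-AL against GFP-AL 6 of the 9 were lower, among them Saa3 (-4.07 ± 0.38), Serpina3n (-3.32 ± 0.42), Hp, the haemoglobin-binding haptoglobin (-2.73 ± 0.44), and Lrg1 (-2.23 ± 0.45). Of all tested genes 11.4% were lower there, and the 9 ran from -4.07 to 0.22.

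Over all 8 lists of other pathway genes, 61 genes passed the filter. In GFP-AL against GFP-Veh 26 of them were called higher and 3 lower, where 10.8% of all tested genes were higher and 17.7% lower. In LH3-AL against GFP-AL 27 were lower and 2 higher, where 11.4% of all tested genes were lower and 17% higher. Without Il11 the counts were 25 and 3, then 26 and 2, of 60. In LH3-AL against GFP-Veh 1 was higher, Lrg1 (2.49 ± 0.45, limma adjusted p = 0.0192), and 1 lower, Cdkn1a (-1.22 ± 0.25, adjusted p = 0.0437). Of all tested genes 0.145% were higher and 0.375% lower there. Lrg1 had a mean of 17.3 FPKM in GFP-Veh, 433.1 FPKM in GFP-AL and 89.7 FPKM in LH3-AL, whose lowest library (46.9 FPKM) lay above the highest GFP-Veh library (40.1 FPKM). No pathway gene was called higher without any one of GFP-Veh replicates 3, 4 and 5 and LH3-AL replicates 3 and 5, and none was called lower without any one library of either group.

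**Figure D5:**
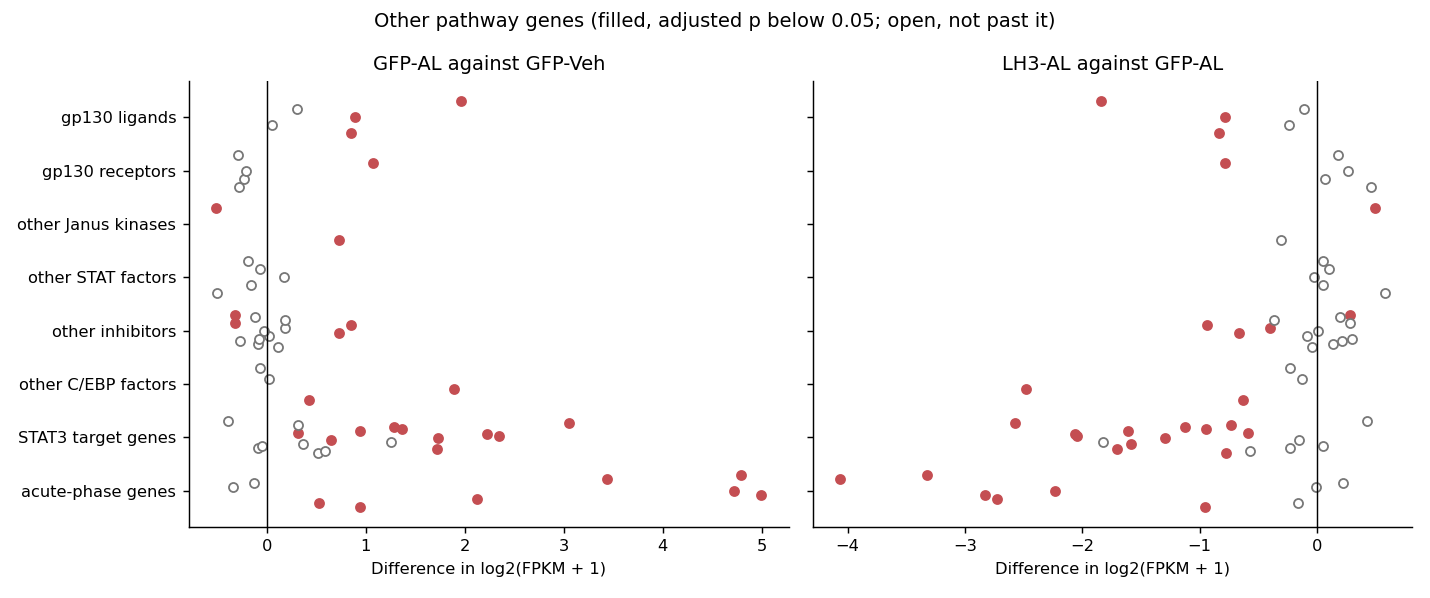
Difference in log2(FPKM + 1) for the tested genes of each pathway list (points), for GFP-AL against GFP-Veh and LH3-AL against GFP-AL, filled where the adjusted p was below 0.05. The acute-phase genes spread farthest, from -0.34 to 5.00 in the first comparison and from -4.07 to 0.22 in the second, while none of the other STAT genes is filled.

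The 5 genes with the pattern most like that of Socs3 were found among 13081 tested genes. Likeness was the mean absolute difference over the 15 libraries between log2(FPKM + 1) values, each centred on the GFP-Veh mean, and it is a description without a test. They were Ch25h (0.38), the enzyme that makes the oxysterol 25-hydroxycholesterol, Cd14 (0.42), a co-receptor for lipopolysaccharide, Ackr1 (0.50), a chemokine-binding receptor of venules, Adamts9 (0.51), a matrix protease, and Csf3 (0.53), encoding the granulocyte growth factor G-CSF. Ch25h averaged 7.83 FPKM under saline with AAV-GFP, 199.5 FPKM in GFP-AL and 18.5 FPKM with AAV-LH3. Csf3 averaged 0.00835, 13.1 and 0.0775 FPKM in the same groups. It thus passed the filter only through GFP-AL. Of the 5 genes, Ch25h, Cd14 and Ackr1 remained with a pseudocount of 0.1. Without the 3 libraries that stood apart, Ch25h, Cd14 and Adamts9 remained, so Csf3 dropped out in both settings. Among the 10 genes studied here Cebpd came nearest to Socs3, at rank 29 (0.77), and Lif stood at rank 245.

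Markers of several cell types moved in the same libraries. All 10 endothelial markers were measured in every group, with a summed level of 2009 to 2875 FPKM in GFP-Veh, 2370.0 to 3564 FPKM in GFP-AL and 1939 to 2653 FPKM in LH3-AL. Of these 3 rose and 3 fell in GFP-AL, where 10.8% of all tested genes rose and 17.7% fell. Nothing about endothelial cells is read from that count. Of 12 microglia and macrophage markers 7 rose in GFP-AL and 0 fell, against the same shares of all tested genes. In LH3-AL 8 of the 12 were lower than in GFP-AL, where 11.4% of all tested genes were. The summed level of the 12 markers was 134.4 to 252.4 FPKM in GFP-Veh, 344.7 to 573.8 FPKM in GFP-AL and 168.6 to 194.7 FPKM in LH3-AL, so that GFP-AL did not overlap with the others. Of 9 neutrophil markers 6 were tested, and 2 of them were called higher in GFP-AL, where 10.8% of all tested genes were. The 6 went both ways there, from -1.21 to 2.18. In LH3-AL 4 of the 6 were called lower than in GFP-AL, where 11.4% of all tested genes were. Cxcr2 was called in both comparisons and passed the filter only through GFP-AL, and without it the counts were 1 and 3 of 5. Between LH3-AL and GFP-Veh 0 of the 6 were called, but 4 lay wholly below GFP-Veh, where 2.61% of all tested genes did. All 9 markers had sums of 100.5 to 336.7, 110.4 to 903.5 and 42.0 to 80.1 FPKM.

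All 6 red cell markers rose in GFP-AL, where 10.8% of all tested genes rose. The sums of the 6 were 1469 to 3862 FPKM in GFP-Veh, 3869 to 19322 FPKM in GFP-AL and 4766 to 10109 FPKM in LH3-AL. None of the 6 was called lower in LH3-AL than in GFP-AL, where 11.4% of all tested genes were. Choroid plexus markers, from a tissue that the protocol set out to remove, were still measured, with sums of 3663 to 9188, 1973 to 3092 and 3155 to 5250.1 FPKM. In GFP-AL 6 of these 8 markers fell, where 17.7% of all tested genes fell. In LH3-AL 5 of the 8 were higher than in GFP-AL, where 17% of all tested genes were. Of 7 oligodendrocyte markers 5 fell in GFP-AL, where 17.7% of all tested genes fell. In LH3-AL 3 of the 7 were higher than in GFP-AL, where 17% of all tested genes were. No marker of any list was below 0.1 FPKM in every library. The part of these cell types in the levels of Socs3, Cebpd and the other genes described here was not tested.

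The authors' deposited table for GFP-AL against GFP-Veh lists 5 of the 10 genes, all as higher. It holds only genes with a size of at least 1 on the log2 scale, a cut that the calls here do not have. In the authors' deposited table the log2 fold changes are 4.22 for Socs3 (q = 2.36e-24), 3.81 for Lif (q = 2.44e-05), 2.61 for Cebpd (q = 4.54e-18), 1.36 for Socs1 (q = 0.0330) and 1.12 for Stat3 (q = 9.21e-08). Socs1 is thus listed there and was not called on the FPKM values. The authors' deposited table that is named for LH3-AL against GFP-Veh lists Socs3 at -3.23, Lif at -3.76, Cebpd at -2.48 and Stat3 at -1.07. Those signs are opposite to the FPKM levels of these groups for each of these genes. Mean Socs3 was 1.96 times as high in LH3-AL as in GFP-Veh. The ratios of Cebpd (1.10), Lif (1.06) and Stat3 (1.02) were only slightly above 1. That authors' deposited table holds 1746 genes. Of these, 995 were tested here, and all 995 had the sign of LH3-AL minus GFP-AL, against 559 with the sign of LH3-AL minus GFP-Veh. Its values therefore match LH3-AL against GFP-AL, and they were not used as a comparison with saline.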

How the data were processed

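RNA was sequenced from isolated cerebral vessels in 15 libraries, 5 a group. Reads were aligned with STAR 2.5.1b and the genome build is named as mm8, per the submitters' processing notes. The sources used here do not give the counting step, the gene models or the use of strand. Exons of Stat3, Jak1 and Cebpd overlap those of Stat5a, Raver2 and Spidr on the other strand, and without strand their reads cannot be told apart.

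The FPKM table was deposited by the authors with values below 0 (5.99% of values), which were set to 0, and 31 symbols with more than one row were summed. The authors' deposited tables of comparisons give log2 fold changes, p-values and q-values, and list genes with a size of at least 1 on the log2 scale and q below 0.05. Depth was estimated from the smallest FPKM steps. With M21 gene lengths, 42.63% (GFP-AL replicate 3) to 65.8% of low values came out within 0.1 of a whole read, too few to recover counts, so no count test was run.

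With R 4.3.3, log2(FPKM + 1) values of the genes whose mean reached 1 FPKM were tested in limma 3.58.1 (intensity trend, one spread shared by all 3 groups). The procedure was tested on simulated data. As alternatives, each library was left out, the 3 libraries that stood apart were left out, and a replicate block, depth as a covariate, the 2 groups alone, quantile normalization, median-of-ratios scaling, a filter at 5 FPKM, no filter and a pseudocount of 0.1 were tried. The text names all 10 genes, Il6, Il6ra and Il6st, up to 4 called genes a list and comparison by smallest p, and the 5 genes most like Socs3. Osm was chosen after its values were seen, and 2 genes that the lists hold are not reported here by name. The 10 genes and all lists were chosen with earlier results of these data known. Marker lists were endothelial, smooth muscle, pericyte, fibroblast, microglia and macrophage, neutrophil, astrocyte, oligodendrocyte, neuron, choroid plexus and red cell. Of smooth muscle markers 1 of 7 fell in GFP-AL and of pericyte markers 3 of 8 fell. Of fibroblast markers 0 of 6 and of neuron markers 0 of 8 were called. Of astrocyte markers 1 of 7 rose and 2 fell. Among all tested genes 10.8% rose and 17.7% fell there, and nothing about these cell types is read from the counts.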

Additional observations from a re-analysis of the deposited data

Results flagged for a closer look

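Jak1 in GFP-AL replicate 1, at 15.7 FPKM, lay apart from the other 4 libraries of its group, which ran from 18.1 to 19.0 FPKM: the gap to the nearest of them was 0.725 of the whole range of the group. It was the 1 such value among 30 groups checked (10 genes in 3 groups), where chance flags about 1 group in 20. No cause was tested.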

How the results depend on the processing

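Of the alternative values for single members, 494 kept direction and side of the threshold, 46 lost a call, 7 gained one and 14 reversed. All reversals were between LH3-AL and GFP-Veh, where no member was called: Jak2 was 0.0117 with median-of-ratios scaling, 0.0245 with quantile normalization and 0.0313 with the depth covariate. Lif was -0.0868 with quantile normalization and -0.171 with the depth covariate, and Stat3 was -0.00179 without the 3 libraries that stood apart. With single libraries left out, Jak2 ran from -0.0373 to 0.0374, Stat3 from -0.00842 to 0.103, Osmr from -0.211 to 0.0527 and Cebpd from -0.00743 to 0.250. The depth covariate ended the calls of Lif (1.16, limma adjusted p = 0.183) and Lifr (-0.47, 0.108) between GFP-AL and GFP-Veh. In the fit of the 2 groups alone, Lif (0.0959), Lifr (0.0505) and Jak1 (0.0568) lost theirs. The cause was not tested.

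Members called were 9 between GFP-AL and GFP-Veh (7 to 9 with one library left out), 9 between LH3-AL and GFP-AL (7 to 8), and 0 between LH3-AL and GFP-Veh (0 to 0, and 1 in the fit of the 2 groups alone). Pathway genes called in GFP-AL against GFP-Veh were 26 higher (23 to 27) and 3 lower (2 to 4), with 1 lower under median-of-ratios scaling, the 2 groups alone or the depth covariate. In LH3-AL against GFP-AL 27 were lower (27 to 29) and 2 higher (1 to 2), with 1 higher under median-of-ratios scaling or quantile normalization. Between LH3-AL and GFP-Veh the 1 higher (0 to 2) became 0 with the depth covariate or the replicate block. The 1 lower there (0 to 0) became 0 without a filter and with median-of-ratios scaling, the depth covariate or the replicate block.

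Over all genes, GFP-AL against GFP-Veh called 3737, 2174 with a mean of at least 5 FPKM (fewer genes tested) and 2359 with the depth covariate. LH3-AL against GFP-AL called 3723, and 2109 with a mean of at least 5 FPKM. LH3-AL against GFP-Veh called 68, then 176 in the 2 groups alone, 158 without the 3 libraries that stood apart, 31 with the replicate block, 4 with the depth covariate, and 27 to 57 with one library left out. Median-of-ratios scaling moved the median of all genes by less than 0.1.

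Same-numbered libraries correlated in their deviations from the group means by -0.261 to 0.286, and not every library correlated best with its own number. The main fit did not pair libraries by number. Weak correlations cannot show whether same-numbered libraries were handled together. With the replicate block, members called were 10, 8 and 0 in the 3 comparisons: Socs1 gained a call in the first (0.75, limma adjusted p = 0.0404) and Jak1 lost one in the second, LH3-AL against GFP-AL (-0.22, 0.0627).

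Depth limits Lif, Il6, Osm and Il11 outside GFP-AL. There Lif rests on about 10.9 to 41.1 estimated fragments a library and Il6 on 4.75 at most. Osm rests on 5.21 to 16.4 in GFP-Veh and 2.48 to 11.6 in LH3-AL, and Il11 on 5.29 to 25.0 and 11.3 to 27.0. In GFP-AL the lowest Il6 library rests on 0.0207 estimated fragments.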
